A study of Homo sapiens with 6 samples.

Results

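Chemokines are small secreted proteins that direct the movement of leukocytes through G protein-coupled receptors on the target cell. The set examined holds 10 of their genes: CXCL1, CXCL2, CXCL3 and CXCL8, whose products bind the neutrophil receptor CXCR2, CXCL10 and CXCL11, whose products bind CXCR3 on activated T cells, and the CC chemokine genes CCL2, CCL3, CCL5 and CCL20. They were taken by gene symbol from the deposited expression table, and all 10 were found among its 32896 genes. All 10 also passed the filter on low values (at least 1 FPKM in at least 3 of 6 libraries) that left 11139 genes for testing. FPKM counts fragments per kilobase of gene and per set number of mapped fragments, so levels can be set side by side between genes.

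The libraries came from BHT101 cells, a permanent human line grown from a thyroid carcinoma of the anaplastic type. The cells had been transfected with a plasmid by a lipid reagent and harvested after 48 h. The control group (n = 3) had a control plasmid and the SK4 group (n = 3) an SK4 overexpression plasmid. SK4 is the calcium-activated potassium channel KCa3.1, encoded by KCNN4, and the stated aim was to find its downstream genes. The treatment label of control replicate 3 names BHT102, while its other labels name BHT101. Nothing in the labels says whether the samples of a group were separate cultures, so the p-values rest on a spread between samples that may be technical alone.

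Epithelial cells transcribe most inducible chemokine genes at a low rate until inflammatory signals reach them. Tumor necrosis factor, interleukin-1 and sensors of microbes activate NF-kB, which acts on the CXCR2 ligand genes, CCL2 and CCL20. Interferons activate interferon regulatory factors, which act on CXCL10 and CXCL11 through an interferon-stimulated response element. CCL5 is induced by both routes. Many chemokine mRNAs are short-lived, so their levels can follow changes in transcription quickly.

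Letters of 3 known motifs were looked for in the DNA before the start sites, and the windows are shown because NF-kB and the interferon factors are the regulators named above. RefSeq promoters (GRCh38.p14, 250 bases before to 50 bases after the start) were found for 8 members, all but CCL2 and CCL5. The core of an NF-kB site, GGAATTTCC, was searched on both strands, so that GGAAATTCC is the same match read on the other strand. It occurred in 6 of the 8 member promoters (CXCL1, CXCL2, CXCL3, CXCL8, CXCL10 and CXCL11), against 0.461% of the 35116 promoters in the table. For each member only the most upstream start was used, while that share counts every promoter. The matches of CXCL1, CXCL2 and CXCL3 lie in nearly the same sequence and are not independent, so the count is a description. The motif was chosen because NF-kB is known to act on several of these genes, so the contrast with all promoters is no test. CCL3 and CCL20 had no match in this window, and other forms of the site were not searched. Each line gives the match in capitals with 10 bases on either side, 5′ to 3′ on the strand of the gene.
CXCL1: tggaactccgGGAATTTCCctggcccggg
CXCL2: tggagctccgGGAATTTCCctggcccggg
CXCL3: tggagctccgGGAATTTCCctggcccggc
CXCL8: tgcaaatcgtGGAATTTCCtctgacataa
CXCL10: aggagcagagGGAAATTCCgtaacttgga
CXCL11: actcaaagagGGAAATTCCtgtgccataa

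The windows of CXCL1, CXCL2 and CXCL3 are nearly the same sequence. CXCL2 shares 28 of the 29 bases with CXCL1 and 28 with CXCL3, while CXCL8 shares 17 with CXCL1. They lie at chr4:73869305-73869333 on the plus strand (CXCL1), chr4:74099254-74099282 on the minus strand (CXCL2), chr4:74038749-74038777 on the minus strand (CXCL3) and chr4:73740468-73740496 on the plus strand (CXCL8). Those of the CXCR3 ligand genes are on the minus strand at chr4:76023655-76023683 (CXCL10) and chr4:76036127-76036155 (CXCL11). The windows of CXCL2, CXCL3 and CXCL11 fall inside the gene span of GENCODE release 29, which has longer transcripts than the RefSeq start used here. Letters of an interferon-stimulated response element were searched on both strands as GAAA, any 2 bases and GAAA again. CXCL11 had no match to these letters in its window, and other forms of the element were not searched. Among the 8 promoters the letters were found in that of CXCL10 alone, against 3.57% of all promoters.
CXCL10: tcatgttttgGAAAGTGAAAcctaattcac

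That window is at chr4:76023699-76023728, also on the minus strand, and does not overlap the NF-kB letters of the same gene. AP-1 letters (TGANTCA, the same on both strands) stood in CXCL8 and CXCL11, against 7.71% of all promoters. Matches describe letters in these windows and say nothing of whether a factor was bound.

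The libraries held an estimated 29700000 to 38500000 fragments. The fewest were in control replicate 3, where 10735 genes were at 1 FPKM or above, and the other libraries had 10855 to 11147 such genes. Over all tested genes its median log2 value lay -0.071 from the mean library, the farthest of the 6, and its deviations went with those of SK4 replicate 2 across genes (r = 0.528 across 11139 genes, which are not independent replicates). KCNN4, the gene of the plasmid, held 8.31, 8.26 and 8.52 FPKM with the control plasmid and 184.1, 147.7 and 169.2 FPKM with the SK4 plasmid. The SK4 values all lay above the control values, with a fitted fold of 18.8 (95% confidence interval 16.6 to 21.3; limma, adjusted p = 8.83e-07). The exact two-sided permutation p was 0.1, the smallest that 3 against 3 libraries allow. The epithelial markers KRT8, KRT18, KRT19, EPCAM and CDH1 were all above 1 FPKM. The follicular markers TG and TSHR were between 0 and 0.01 FPKM throughout, and all 7 thyroid follicular markers stayed below 1 FPKM.

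CCL5 dominated the chemokine transcripts of these transfected cells. Its product, also called RANTES, attracts T cells, monocytes and eosinophils. Control libraries held 871.1, 883.4 and 859.8 FPKM and SK4 libraries 1011, 976.6 and 889.7 FPKM of CCL5, which placed it at rank 31 of all 32896 genes by mean level. It made up 91.3% to 93.3% of the summed FPKM of the 10 genes in each library. No library came from untransfected cells, so levels without transfection were not measured. The part of transfection in the levels of either group was not tested. CCL5 is best known as a gene of T cells and other leukocytes, and the pan-leukocyte marker PTPRC (CD45) was at 0 to 0.01 FPKM in every library. The T cell marker CD3E was at 0 to 0.04 FPKM. Of the 8 leukocyte markers in the table, 3 passed the filter (CD14, CD68 and ITGAM). Of the 5 fibroblast markers LUM alone passed the filter, and their sum was 22.5 to 27.6 FPKM with the control plasmid and 23.5 to 31.9 FPKM with the SK4 plasmid. The part of other cells in the chemokine levels was not tested. The summed level of the 8 leukocyte markers was 6.85 to 7.53 FPKM with the control plasmid and 6.60 to 7.23 FPKM with the SK4 plasmid.

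The other 9 genes lay far below CCL5. CXCL10 followed at a mean of 29.3 FPKM, 31.2 times lower than CCL5, and then CXCL2 at 11.9 FPKM. CXCL11 (9.92 FPKM), CXCL8 (8.27), CCL20 (6.57), CCL3 (5.99), CXCL1 (4.70), CXCL3 (2.40) and CCL2 (1.37) closed the order, all as means of 6 libraries. The ranges of neighbours from CXCL2 down to CXCL1 overlapped, though each was above the next in all 6 libraries except CCL20 and CCL3, where CCL20 was higher in 4 of 6. CCL5, CXCL10, CXCL3 and CCL2 were separated from their neighbours in the order without overlap.

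**Figure D1:**
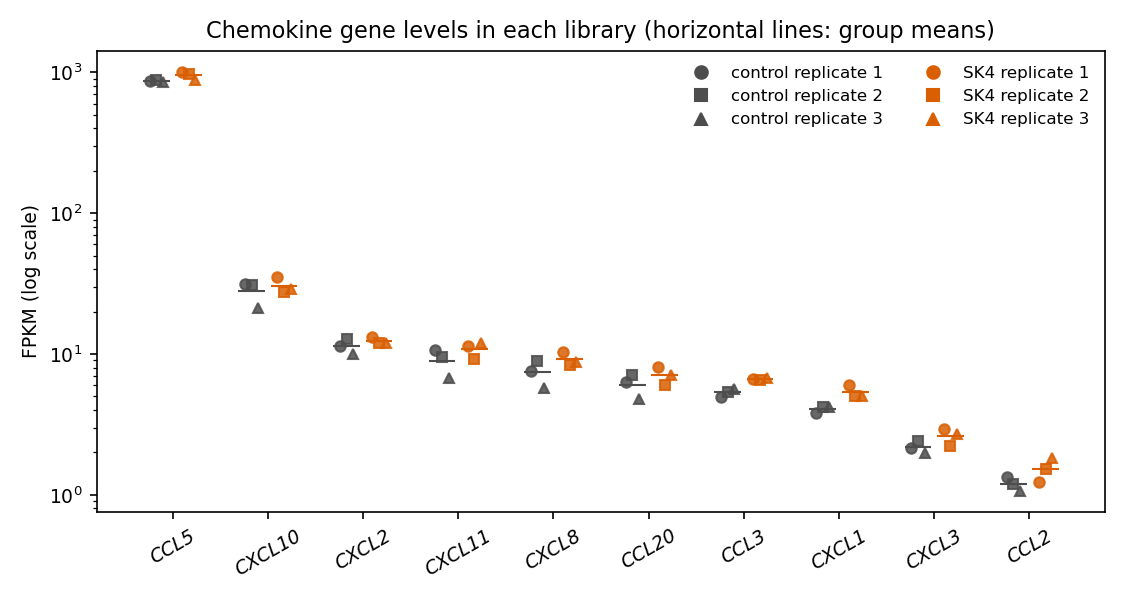
FPKM of each of the 10 chemokine genes in the 6 libraries on a log scale, control in grey and SK4 in orange, with group means as lines. CCL5, with a mean of 915 FPKM, stands more than 1 order of magnitude above CXCL10, and the 2 groups lie close together for every gene.

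Genomic neighbours differed widely in level. Members on chromosome 4 fall in a CXC gene cluster that runs from CXCL8 (chr4:73740506-73743716) through CXCL1 (chr4:73869393-73871242) and CXCL3 (chr4:74036589-74038807) to CXCL2 (chr4:74097035-74099293). CXCL5, another CXCR2 ligand gene of that cluster and no member, had the highest level in it, a mean of 38.7 FPKM. PPBP and PF4, between CXCL1 and CXCL5, had means of 0.00667 and 3.82 FPKM, and CXCL6 and PF4V1, between CXCL8 and CXCL1, had means of 0.265 and 0.27 FPKM. Farther along chromosome 4, CXCL10 (chr4:76021117-76023497) and CXCL11 (chr4:76033682-76041415) stand beside CXCL9, the other CXCR3 ligand gene, which had a mean of 0.045 FPKM. CXCL9 is known to depend on interferon gamma more than its neighbours do.

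On chromosome 17 the members were CCL2 (chr17:34255218-34257203), CCL5 (chr17:35871491-35880793) and CCL3 (chr17:36088256-36090169). CCL7, CCL11 and CCL13, which follow CCL2, had means of 0.008 to 0.015 FPKM, and CCL16, CCL14 and CCL15, which follow CCL5, had means of 0.005 to 0.013 FPKM. CCL20 (chr2:227805739-227817564) stands outside these clusters. These coordinates are GRCh38 positions from GENCODE release 29, which may differ from the authors' annotation.

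**Figure D2:**
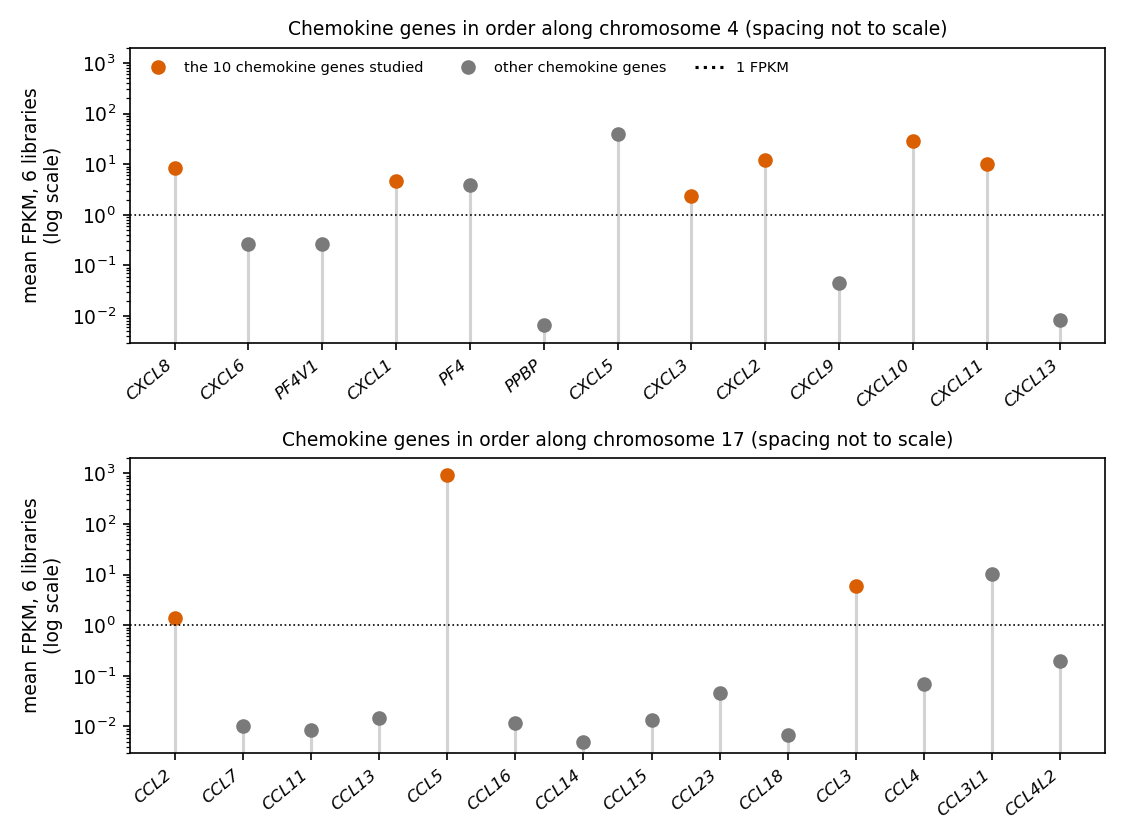
Mean FPKM over the 6 libraries, on a log scale, of the chemokine genes in order along chromosomes 4 and 17, with the 10 genes studied in orange, others in grey and 1 FPKM dotted. Genes near or above 1 FPKM stand among genes near 0, and CCL5 is by far the highest on chromosome 17, where CCL3L1, CCL3 and CCL2 are also above 1 FPKM.

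The chemokine receptor genes examined were nearly all at very low levels. Of 20 receptor and scavenger receptor genes in the table, 19 stayed below 1 FPKM in every library. The exception was CCRL2, a chemerin-binding receptor, at 1.69 to 1.94 FPKM with the control plasmid and 1.68 to 1.92 FPKM with the SK4 plasmid. CXCR3, the receptor for CXCL10 and CXCL11, was at 0.01 to 0.10 FPKM, and CCR1, a receptor for CCL5, was at 0.01 to 0.06 FPKM. Of 23 such genes looked for, 20 were in the table. CXCR2 and CCR6 are not among the 20, so the statement on low levels does not cover these 2.

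Between the plasmids, no chemokine gene was called. Calls were made with limma where the p adjusted over the 11139 genes by the Benjamini-Hochberg method was under 0.05, which 0.00898% of them, KCNN4 alone, met. Each of the 10 members had an adjusted p of 0.99997. All 10 had a positive log2 fold change (9 with library weights or without control replicate 3, where CXCL10 was negative), against 57.9% of all tested genes, with a median of 0.235 against 0.0108 over all tested genes. An unadjusted p below 0.05 was found for 3 of 10, all higher with the SK4 plasmid, against 1.65% of all tested genes in either direction and 1.06% in this one. Both counts moved with the setting: over all tested genes from 184 to 419 without control replicate 3 and to 905 with library weights, and among the members to 5 without control replicate 2 and to 2 with CCL3 summed with its copy CCL3L1. With all libraries and CCL3 alone, the same 3 genes, CXCL1, CCL3 and CCL5, had SK4 values that were all higher than every control value, against 3.53% of all tested genes, and 0 of 10 had all SK4 values below, against 1.81%.

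The members were chosen with earlier results of these data known and vary together between libraries, so these counts are a description. Without control replicate 3 the median of the 10 fell to 0.133, and 9 of 10 were positive. The median of all tested genes was -0.0211 in that setting. Without both control replicate 3 and SK4 replicate 2 the median of the 10 was 0.195 with 10 of 10 positive. Over all 11139 tested genes the median was then -0.00763, with 5022 positive. With these 2 against 2 libraries, 6 of 10 members had SK4 values that were all higher than every control value, against 13.8% of all tested genes. All SK4 values lay below for 0 of 10 members and for 2151 of all tested genes. The 2 libraries were left out because they stood apart in these same data. SK4 replicate 2 was the lowest SK4 library for 7 of 10 members, so leaving it out makes such a separation upward easier for them. In bulk samples a change in the share of cells that express a gene and a change in RNA per cell cannot be told apart.

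**Figure D3:**
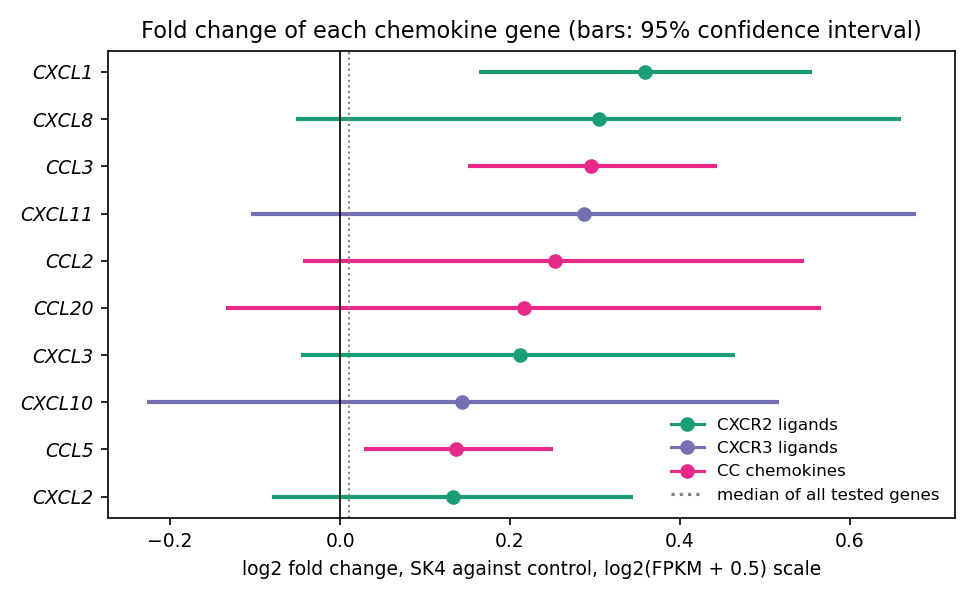
Log2 fold change of each chemokine gene, SK4 against control, on the log2(FPKM + 0.5) scale with its 95% confidence interval, coloured by receptor group, and the median of all tested genes dotted. All 10 estimates are positive (that of CXCL10 is negative with library weights or without control replicate 3), and the intervals of 7 include 0.

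The CXCR2 ligand genes, which recruit neutrophils, are taken first. CXCL1 (ENSG00000163739) held 3.78, 4.19 and 4.18 FPKM with the control plasmid and 6.01, 5.03 and 5.01 FPKM with the SK4 plasmid. The groups did not overlap, and SK4 replicate 1 was highest. Means were 4.05 ± 0.234 and 5.35 ± 0.572 FPKM (SD, n = 3 each), a log2 fold change of 0.36 with a standard error of 0.086 (limma, adjusted p = 0.99997; 95% confidence interval of the fold 1.12 to 1.47). This estimate was the largest among the 10 genes with all libraries, but not in every setting: without control replicate 2, for example, CXCL8 was at 0.44 and CXCL1 at 0.38.

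CXCL8 (ENSG00000169429), which encodes interleukin-8, held 7.60, 8.90 and 5.69 FPKM with the control plasmid and 10.25, 8.38 and 8.80 FPKM with the SK4 plasmid. Control replicate 3 was the low value, and control replicate 2 lay above both SK4 replicates 2 and 3, so the groups overlapped. The log2 fold change was 0.30 with a standard error of 0.15 (limma), and 0.14 without control replicate 3. The interval of its fold ran from 0.965 to 1.58.

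CXCL2 (ENSG00000081041) and CXCL3 (ENSG00000163734) are close copies of CXCL1. CXCL2 held 11.41, 12.70 and 9.92 FPKM with the control plasmid and 13.29, 11.97 and 12.06 FPKM with the SK4 plasmid, and CXCL3 held 2.15, 2.43 and 1.97 against 2.91, 2.23 and 2.70 FPKM. In both, control replicate 2 fell inside the range of the SK4 values. The log2 fold changes were 0.13 ± 0.091 for CXCL2 and 0.21 ± 0.11 for CXCL3 (standard error, limma). Without control replicate 3 they were 0.044 and 0.15, and that of CXCL2 was 0.086 without SK4 replicate 1 and 0.21 when control replicate 2 was left out. The sources used here do not say how the authors assigned reads shared by such copies, so the split between CXCL1, CXCL2 and CXCL3 is uncertain. CXCL5, the abundant non-member of the same group, held 33.2 to 44.5 FPKM with the control plasmid and 34.4 to 42.8 FPKM with the SK4 plasmid, with a log2 fold change of -0.031.

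The CXCR3 ligand genes are textbook interferon-induced genes. CXCL10 (ENSG00000169245) held 31.65, 30.91 and 21.27 FPKM with the control plasmid and 35.04, 27.65 and 29.13 FPKM with the SK4 plasmid. Of the SK4 values 2 lay below 2 of the control values, and control replicate 3 stood apart at the low end. The log2 fold change was 0.14 with a standard error of 0.16 (limma). It was -0.038 without control replicate 3, 0.030 without both that library and SK4 replicate 2, and 0.044 without SK4 replicate 1. With library weights it was -0.026, so its direction was not stable across these settings. CXCL11 (ENSG00000169248) held 10.68, 9.45 and 6.71 FPKM with the control plasmid and 11.48, 9.29 and 11.91 FPKM with the SK4 plasmid. Control replicate 3 was again the lowest, and SK4 replicate 2 lay below 2 control values. Its log2 fold change of 0.29 ± 0.17 (standard error, limma) became 0.10 without control replicate 3.

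Among the CC chemokine genes, CCL3 and CCL5 had groups that did not overlap. CCL3 (ENSG00000277632), which encodes the macrophage inflammatory protein MIP-1 alpha, held 4.94, 5.37 and 5.68 FPKM with the control plasmid and 6.60, 6.56 and 6.78 FPKM with the SK4 plasmid. The SK4 values were closely spaced and all above the control values, with means of 5.33 ± 0.372 and 6.65 ± 0.117 FPKM (SD, n = 3 each). The log2 fold change was 0.30 with a standard error of 0.064 (limma, adjusted p = 0.99997; unadjusted p = 0.00213). CCL3 was the one member whose highest control value was in replicate 3.

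CCL3L1, a near-identical copy of CCL3, held 10.18, 10.39 and 9.72 FPKM with the control plasmid and 9.18, 10.93 and 10.37 FPKM with the SK4 plasmid. Its log2 fold change was 0.0056 (limma), and its groups overlapped. The sum of both genes was 15.12, 15.76 and 15.40 FPKM with the control plasmid and 15.78, 17.49 and 17.15 FPKM with the SK4 plasmid, and with that sum in place of CCL3 the log2 fold change was 0.12. Reads of CCL3 and CCL3L1 cannot be told apart by these values, so the difference in CCL3 alone is uncertain.

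CCL5 (ENSG00000271503) had means of 871.5 ± 11.8 FPKM with the control plasmid and 959.2 ± 62.6 FPKM with the SK4 plasmid (SD, n = 3 each). Its groups touched closely, with the highest control value at 883.4 and the lowest SK4 value at 889.7 FPKM. The log2 fold change was 0.14 with a standard error of 0.048 (limma, adjusted p = 0.99997), and the interval of the fold ran from 1.02 to 1.19. Because CCL5 is so abundant, this difference of means outweighed those of all the other members in summed FPKM. The summed level of the 10 genes was 921.1 to 965.6 FPKM with the control plasmid and 975 to 1106 FPKM with the SK4 plasmid.

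CCL20 (ENSG00000115009), the ligand of CCR6 on dendritic cells and Th17 cells, held 6.32, 7.05 and 4.80 FPKM with the control plasmid and 8.15, 6.05 and 7.06 FPKM with the SK4 plasmid. Control replicate 3 and SK4 replicate 2 were the lowest of their groups, and the groups overlapped. The log2 fold change was 0.22 ± 0.15 (standard error, limma), or 0.071 without control replicate 3, 0.12 without SK4 replicate 1 and 0.33 without control replicate 2. CCL2 (ENSG00000108691), the monocyte attractant MCP-1, held 1.33, 1.20 and 1.07 FPKM with the control plasmid and 1.24, 1.53 and 1.84 FPKM with the SK4 plasmid. It was the lowest of the 10 genes, its groups overlapped, and its log2 fold change was 0.25 ± 0.13 (standard error, limma), or 0.15 without SK4 replicate 3.

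The intervals give the range of change that these libraries leave for each gene, taken alone and not adjusted over the 11139 genes. They rest on the spread between samples, which may be technical alone, so they may be too narrow. The upper limit of the fold was below 1.5 for 8 of the 10 genes and below 2 for all 10, the exceptions at 1.5 being CXCL8 and CXCL11 (1.58 and 1.60). These limits are on the log2(FPKM + 0.5) scale, which understates changes of low genes such as CCL2. Counting error alone would give a coefficient of variation of 0.448% for CCL5, 2.83% for CXCL10 and 10.1% for CCL2, from an estimated 38610 to 55804, 743 to 1504 and 63 to 140 fragments a library. Observed values between control libraries were 1.36%, 20.7% and 10.8%. CXCL8, CXCL11 and CCL20 also varied by 19.0% to 22.7% between control libraries, against a counting error of 3.81% to 5.13%. Between SK4 libraries the coefficients were 6.52% for CCL5, 12.8% for CXCL10 and 19.5% for CCL2. The spread of CCL2 was thus close to the counting error between control libraries and above it between SK4 libraries.

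Most members were high and low in the same libraries. Control replicate 3 was the lowest control library for 8 of 10 genes, all but CXCL1 and CCL3, where 62.0% of all tested genes were lowest in that library. Relative to the mean of control replicates 1 and 2 it held 0.667 of the CXCL11, 0.68 of the CXCL10, 0.69 of the CXCL8 and 0.718 of the CCL20 level, but 0.98 of the CCL5 level. SK4 replicate 2 was the lowest SK4 library for 7 of 10 genes (48.7% of all tested genes), and SK4 replicate 1 the highest for 7 of 10 (49.4% of all tested genes). The part of depth or RNA quality in this pattern was not tested.

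**Figure D4:**
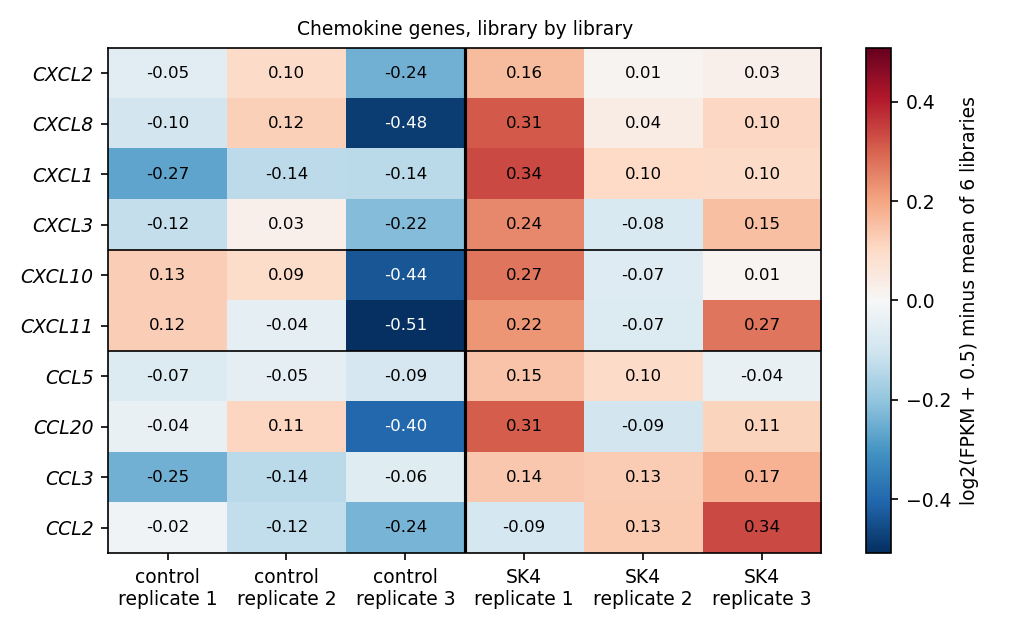
Each gene's log2(FPKM + 0.5) in each library minus its mean over the 6 libraries, blue below and red above, with CXCR2 ligand genes on top, CXCR3 ligand genes in the middle and CC chemokine genes at the bottom. Control replicate 3 is the lowest library for every gene but CXCL1 and CCL3, and lies farthest below the mean for CXCL11, CXCL8, CXCL10 and CCL20. CXCL1, CCL3, CCL5 and CCL2 are below their means in all 3 control libraries.

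Over the 6 libraries all 45 pairs of members were positively correlated, against 57.9% of all pairs of tested genes. The median Pearson r of the member pairs was 0.641, against 0.144 over all pairs of tested genes. The values share libraries, depth and the group difference, so they are given as a description. CXCL2 and CXCL8 were the closest pair (r = 0.989), followed by CCL20 with CXCL8 (0.964) and with CXCL2 (0.954). CCL3 followed CXCL1 (0.891) but not CXCL10 (0.066). CCL3 and CXCL1 were the members that were not lowest in control replicate 3 among the controls.

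Other genes with a mean of at least 5 FPKM followed some members as closely. Of 5284 such genes, 705 had r of at least 0.9 with CXCL10, against 167 with CXCL2 and 55 with CCL5. Over all pairs of the 11139 tested genes, 4.77% had an r of at least 0.9. The share of the 5284 genes was above this for CXCL10 and below it for CXCL2 and CCL5. The most alike were BRD2 (0.997), KLF6 (0.995) and CRCP (0.993) for CXCL10, and IWS1 (0.998), CD82 (0.994) and ZFAND3 (0.993) for CXCL2. For CCL5 they were UBXN6 (0.996), EDC3 (0.985) and COASY (0.981). KLF6 held 15.0, 14.28 and 11.23 FPKM with the control plasmid and 15.9, 13.31 and 14.07 FPKM with the SK4 plasmid, low like CXCL10 in control replicate 3. With 6 libraries and so many genes, such values are selected to be high.

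The pathways that control chemokine genes were present but were not called either. For the lists that follow, 57.9% of all tested genes had a positive log2 fold change, with a median of 0.0108. An unadjusted p below 0.05 was found for 1.65% of all tested genes (limma). Of 24 NF-kB signalling genes, 23 were tested, 0 were called, 2 had an unadjusted p below 0.05 (limma), and 19 had a positive log2 fold change, with a median of 0.052. NFKBIA, the inhibitor that NF-kB itself induces, held 79.7 to 86.4 FPKM with the control plasmid and 87.1 to 93.6 FPKM with the SK4 plasmid (log2 fold change 0.12). TNIP1, which dampens the same pathway, held 54.3 to 55.5 and 57.1 to 60.2 FPKM (0.092). The groups of these 2 genes did not overlap, nor did those of RELB, a subunit of the noncanonical pathway (19.4 to 19.8 and 20.0 to 21.6 FPKM). TRAF2, a signalling adaptor, was lower without overlap (10.2 to 10.3 and 9.59 to 9.94 FPKM). Thus 3 of the 23 genes lay above and 1 below without overlap, against 3.53% and 1.81% of all tested genes. NFKB2, the p100 precursor, and BCL3, a nuclear cofactor, had log2 fold changes of 0.023 and 0.0049.

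Of 20 interferon signalling genes 15 were tested, 0 were called, 1 had an unadjusted p below 0.05 (limma), and 13 were positive with a median of 0.066. That gene was IRF7, at 17.6 to 18.6 FPKM with the control plasmid and 19.7 to 20.4 FPKM with the SK4 plasmid. The receptor gene IFNGR2, the feedback inhibitor SOCS3 and the transcription factor IRF3 had log2 fold changes of 0.053, -0.016 and 0.041. IFNB1, which encodes interferon beta, did not pass the filter and held 0.16 to 0.40 FPKM with the control plasmid and 0.19 to 0.42 FPKM with the SK4 plasmid. The interferon lambda gene IFNL1 was at 1.88 to 2.22 and 1.72 to 2.52 FPKM.

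Of 22 upstream ligand and receptor genes 13 were tested, 0 were called, 0 had an unadjusted p below 0.05 (limma), and 7 were positive with a median of 0.024. The kinase gene IRAK1 and the tumor necrosis factor receptor gene TNFRSF1A were the highest, at means of 161 and 85.6 FPKM, with log2 fold changes of -0.030 and -0.0088. TNFRSF1B and the adaptor TRADD had log2 fold changes of 0.088 and 0.024. Among the ligands, TNF held 1.16 to 1.52 and 1.52 to 1.72 FPKM, with a log2 fold change of 0.20, and IL6 held 5.44 to 7.37 and 7.13 to 8.21 FPKM, with one of 0.17. Transcripts of IL1A and IL1B were at most 0.11 and 0.07 FPKM. MYD88, an adaptor of the interleukin-1 receptor, was the 1 gene of the 13 tested without overlap, at 16.29 to 16.95 and 17.40 to 17.87 FPKM. Over all tested genes 3.53% lay above and 1.81% below without overlap.

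Of 12 genes for decay of such mRNAs 10 were tested, 0 were called, 0 had an unadjusted p below 0.05 (limma), and 4 were positive with a median of -0.0032. Of its most abundant members, KHSRP was at 37.5 to 38.8 FPKM with the control plasmid and 36.6 to 39.0 FPKM with the SK4 plasmid, and HNRNPD at 33.9 to 39.6 and 35.2 to 38.1 FPKM. Of 33 other chemokine genes in the table, 7 passed the filter, 0 were called, 0 had an unadjusted p below 0.05 (limma), and 4 were positive with a median of 0.0056. Besides CXCL5 and CCL3L1, the most abundant were the membrane-bound chemokine genes CX3CL1 (9.01 to 9.99 and 9.49 to 10.65 FPKM) and CXCL16 (8.72 to 9.19 and 8.79 to 10.23 FPKM).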

How the data were processed

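Per the labels' protocols, polyadenylated RNA was captured with beads, a dUTP-marked second strand made the libraries directional, and sequencing was paired-end on an Illumina instrument. The authors deposited FPKM values for 32896 genes, 1 column per library. Per the submitters' processing notes, the aligner was HISAT2 and the build GRCh38. Its version, the annotation and the program behind the FPKM are not given in the sources used here. Depth was estimated from 561 single-exon genes shorter than 160 nt, whose low FPKM values are multiples of 1 fragment (99.5% to 100% of values within 0.1). It covers counting error only.

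Groups were compared on log2(FPKM + 0.5) with limma 3.58.1 (R 4.3.3), a trended and robust prior variance and no covariate, after a test on simulated data. No count model was used, since the unit is FPKM. Named were the 10 members, KCNN4, up to 4 most abundant tested genes of each pathway list, and the 3 genes most like the most abundant member of each receptor group. IFNB1, IFNL1, IL1A, IL1B, IL6, IRF7, MYD88, RELB, TNF, TRAF2, the receptors and the neighbours of clusters were named with their values in view. The members and lists were chosen with earlier results of these data known. Positions and exonic lengths came from GENCODE release 29, to which 31742 identifiers matched; promoters came from RefSeq.

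Alternatives changed the pseudocount, the filter, the scaling, the prior variance, the weights of libraries, the use of the replicate number, or left out 1 or 2 libraries. Some genes are not reported here.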

Additional observations from a re-analysis of the deposited data

How the results depend on the processing

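No chemokine gene was called under any of the 17 alternatives (lowest adjusted p 0.15255, for CCL3 with library weights; limma), and KCNN4 was called in each of them. The count of called genes over the whole table was 4 without control replicate 3 and SK4 replicate 2, and 1 in all other settings. CXCL10 was -0.026 on the log2 scale with library weights and ranged from -0.038 to 0.24 when 1 library was left out; no other member changed sign. The median of the members ranged from 0.133 (without control replicate 3) to 0.304 (without SK4 replicate 2); the filter at 5 FPKM left 8 members, so no median is given for it. The cause of these shifts was not tested. Same-numbered libraries did not share deviations throughout (correlations 0.306, -0.41 and -0.154 across genes). Whether the replicate numbers pair the libraries cannot be told from this. The deviations shared by control replicate 3 and SK4 replicate 2 (r = 0.528) weigh on these correlations. With the replicate block 1 gene was called, 0 members were called, the median was 0.235 and KCNN4 had a log2 fold change of 4.23. The sum of CCL3 with CCL3L1 was chosen after seeing the data. Below about 1 FPKM, values rest on few fragments.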

Other observations

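Among chemokine genes below the filter, CCL4L2, a near-identical copy of CCL4 next to CCL3L1 on chromosome 17, had groups that did not overlap. It held 0.04, 0.07 and 0.07 FPKM with the control plasmid and 0.29, 0.35 and 0.34 FPKM with the SK4 plasmid. These values correspond to an estimated 2 to 3.8 fragments in each control library and 15 to 18 in each SK4 library. In the fit with no filter on low values its unadjusted p was 0.000217 and its adjusted p 0.9729 (limma). CCL4 held 0.09, 0.03 and 0.02 FPKM with the control plasmid and 0.08, 0.12 and 0.07 FPKM with the SK4 plasmid.

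Lower in the SK4 libraries without overlap were PF4V1, a variant of platelet factor 4, at 0.34, 0.38 and 0.36 against 0.22, 0.11 and 0.21 FPKM, and CXCL14, at 0.08, 0.16 and 0.10 against 0, 0.04 and 0.03 FPKM. PF4V1 rested on an estimated 5.6 to 7.6 fragments in each control library and 2.1 to 4.2 in each SK4 library. For CXCL14 these were 5.7 to 12 and 0 to 2.9 fragments. In the fit with no filter on low values the adjusted p was 0.9729 for each (limma). The genes of this section were chosen after their values were seen, among 26 other chemokine genes below 1 FPKM throughout. The share of all genes below the filter without overlap was not counted. How reads shared with CCL4 or PF4 were assigned is not given.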
